A study of Mus musculus with 12 samples.

Results

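The comparison described here sets fibro-adipogenic progenitors from overloaded plantaris muscle against those from sham-operated plantaris muscle, in control mice. It uses 6 of the 12 libraries of the study, chosen by their labels alone: 3 control sham libraries and 3 control overload libraries. Control mice carried the Pdgfra-CreERT2 driver, and their label lists no floxed allele. The other 6 libraries came from conditional double knockout mice (cdKO), which carried the same driver together with floxed Yap1 and floxed Taz (symbol Wwtr1) alleles, again 3 from sham and 3 from overloaded muscle. All 12 libraries therefore came from mice with the Cre transgene, which is driven by the promoter of Pdgfra and so is expected in the sorted population itself. Cells positive for Pdgfra were sorted, 1000 to a tube, and libraries were made with a low-input protocol that counts the 3′ ends of transcripts. Not given in the sources used here are the time from surgery to sampling, the age of the mice, any tamoxifen treatment and whether animals were pooled. The labels do not say that the libraries came from separate animals, so p-values measure the spread between these libraries only, which may be technical.

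Fibro-adipogenic progenitors are mesenchymal cells that lie between muscle fibres. In resting muscle they lay down interstitial matrix and secrete factors that act on muscle stem cells and immune cells, and after injury or load they can enter the cell cycle and become matrix-producing fibroblasts or, in other settings, adipocytes. Overload of the plantaris, usually obtained by removing or disabling its synergist muscles, makes the fibres grow. YAP and TAZ are co-activators of the Hippo pathway that respond to cell tension and drive transcription through TEAD factors.

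The control libraries held 336437 to 793842 counts with sham surgery and 590236 to 1564581 counts with overload. Values are CPM, the count of a gene scaled to the same library depth with trimmed mean factors, given for replicates 1, 2 and 3 of a group in that order, and 3 counts amount to 1.95 to 9.72 CPM. On the first principal component of the 6 libraries, which held 59.8% of their variance, the sham libraries lay at -41.4, -33.4 and -46.2 and the overloaded ones at 11.7, 61.3 and 47.9, so overload replicate 1 lay nearest to sham. Overload replicates 2 and 3 had 72.7 and 88.7 CPM of chromosome Y genes against 225 to 308 CPM in the other 4 control libraries. Overload replicate 2, the deepest library, had a count for 16744 genes against 20291 to 23623 in the other 5. The part of the depth and of the number of genes seen in the results was not tested. Counts with each library left out in turn, always in the order sham replicates 1, 2 and 3 and then overload replicates 1, 2 and 3, and counts with the chromosome Y level as a covariate, are given where a list's count of 4 or more moved by over 1.5 times. Smaller counts often moved by as much and are given as counts only. Levels are CPM, and changes are log2 fold changes of overload over sham. The value after ± is an approximate standard error, worked back from the edgeR test of that change. It was not estimated directly and may be inaccurate for genes almost without counts in a group.

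The label of the cells was checked against 18 progenitor markers, all of which were tested and had counts in every library. Pdgfra, the receptor used for the sort, stood at 608, 479.9 and 479 CPM in sham and 443, 376 and 308 CPM in overload and did not pass the test (log2 fold change -0.48 ± 0.26, edgeR adjusted p = 0.186). Ly6a, which encodes the surface protein Sca-1, did not pass either (log2 fold change -0.41 ± 0.26, edgeR adjusted p = 0.257). Of the 18, 3 were called higher (16.7%) and 9 lower (50%), against 10.6% and 11% of all tested genes. Progenitor markers were thus called lower well above the background share. Their summed level was 91298 to 110019 CPM in sham and 69090 to 95256 CPM in overload. That sum came mostly from Gsn and Dcn, which fell, and from Col3a1, Col1a1 and Col1a2, of which the first 2 were called higher. Markers of other cells were low: summed endothelial markers stood at 163 to 342 CPM in sham and 59.1 to 221 CPM in overload, and summed myeloid markers at 56.1 to 77.8 and 14.9 to 74.1 CPM. Summed pericyte markers stood at 441 to 567 CPM in sham and 188 to 295 CPM in overload, mostly from Steap4 and Vtn. Summed Schwann cell markers stood at 360 to 558 and 187 to 296 CPM, mostly from Pmp22, and lymphocyte markers at 24.6 to 58.3 and 0.649 to 32.7 CPM. Myofibre markers summed to 97.1 to 162 and 18.2 to 122 CPM, and muscle stem cell markers to 446 to 599 and 465 to 667 CPM. The part of these markers in the results was not tested. Lyz2, C1qa, C1qb and Tyrobp of the 18 myeloid markers, Cd79a and Nkg7 of the 14 lymphocyte markers, Sox10 and Pmp2 of the 10 Schwann cell markers, Mb and Tnnc2 of the 18 myofibre markers, Higd1b of the 12 pericyte markers, and Cidec, Lep and Cidea of the 7 adipocyte markers had no count in any control library. The 7 erythroid markers summed to 2.73 to 9.72 CPM in sham and to 283, 12.3 and 49.0 CPM in overload replicates 1, 2 and 3. The 7 tenocyte markers summed to 109 to 410 CPM in sham and 2367 to 5118 CPM in overload, nearly all of it from Thbs4, while Scx, the tendon transcription factor, had 2, 0 and 0 counts in sham and 6, 12 and 11 in overload. In bulk samples such as these, fewer cells of a type and less RNA per cell cannot be told apart.

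Overload changed the level of 1768 of 8161 tested genes, 21.7% of them, at an adjusted p under 0.05 (edgeR quasi-likelihood test, Benjamini-Hochberg adjustment). Of these, 867 genes (10.6%) were higher and 901 (11%) lower with overload, and the median log2 fold change of all tested genes was -0.05. Among the higher genes 678 changed by at least 2-fold, 158 by at least 4-fold, 46 by at least 8-fold and 24 by at least 16-fold, against 757, 239, 45 and 6 of the lower genes. Decreases were more numerous past 2-fold and 4-fold, the numbers were nearly equal past 8-fold, and increases were more numerous past 16-fold. The median log2 fold change of a called gene was 1.32 for increases and -1.53 for decreases. For 1655 of the 1768 called genes (93.6%) the 3 overloaded libraries did not overlap the 3 sham libraries. Over all tested genes, all 3 overloaded libraries lay above all 3 sham libraries for 18% and below them for 18.9%. The counts of higher and lower genes fell to 556 and 504 without overload replicate 2, rose to 1259 and 1249 without overload replicate 1, and were 440 and 591 with the chromosome Y level as a covariate.

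**Figure D1:**
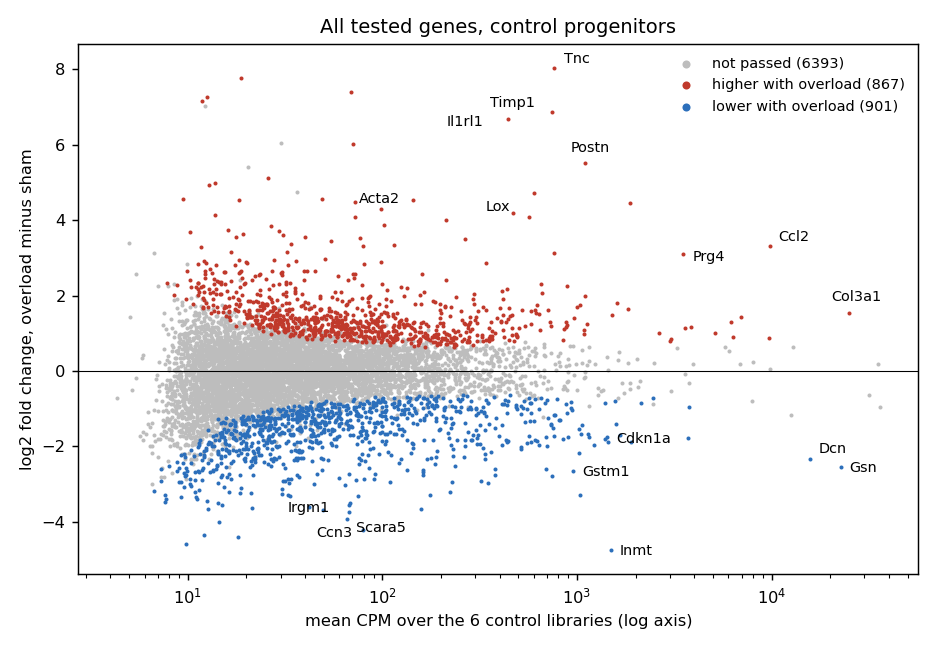
Log2 fold change of overload over sham (vertical axis) against mean CPM over the 6 control libraries (horizontal axis, log scale) for the 8161 tested genes. Red points are the 867 genes called higher, blue points the 901 called lower and grey points the rest, and abundant matrix genes lie at both extremes.

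The called genes made up a large part of the messages counted. Genes called higher held 11.2%, 11% and 10.2% of the CPM of tested genes in the sham libraries and 25.1%, 34.2% and 30.1% in the overloaded ones. Genes called lower held 24.8%, 28.0% and 25.4% in sham and 11.3%, 7.97% and 7.27% in overload. The genes were called on these same libraries, so the shares describe how much of the transcript pool was exchanged and are no test. The cdKO libraries entered the fit behind the calls, through the filter on low counts and the shared spread, but not the contrast itself. In them the genes called higher held 11.6% to 13% in sham and 22.8% to 28.5% in overload. Genes called lower held 22.4% to 24.3% and 9.51% to 13.6% of the cdKO libraries.

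**Figure D2:**
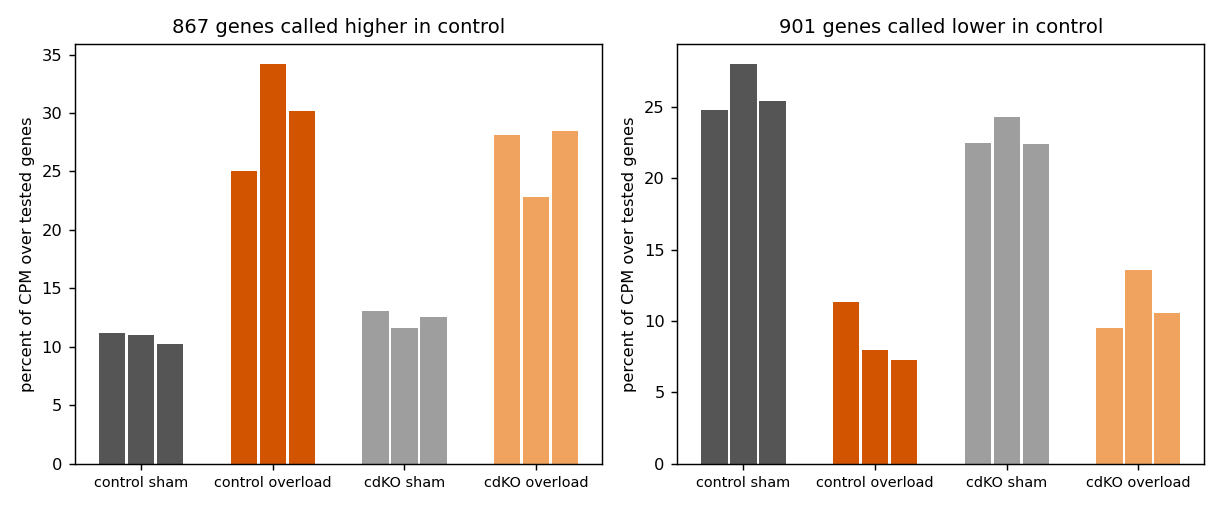
Percent of the CPM of tested genes held by the 867 genes called higher in control (left) and the 901 called lower (right), one bar per library, replicates 1, 2 and 3 from left to right in each of the 4 groups. The overloaded libraries of both genotypes stand above sham in the left panel and below it in the right panel.

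By class of gene, 852 of 7788 protein-coding genes were called higher and 867 lower, with a median log2 fold change of -0.04. Of 233 long non-coding genes 2 were called higher (0.858%) and 34 lower (14.6%), against 10.6% and 11% of all tested genes, with a median of -0.86. The lower ones included Mir17hg, the host transcript of the miR-17-92 cluster, at 92.3, 58.8 and 71.3 CPM in sham and 51.7, 11.7 and 16.3 CPM in overload (log2 fold change -1.62 ± 0.39, edgeR adjusted p = 0.00441). Meg3, an imprinted transcript, stood at 622, 581 and 758 CPM in sham and 396, 229.8 and 355 CPM in overload (log2 fold change -1.0 ± 0.28, edgeR adjusted p = 0.0115). Neither overlapped between the groups, but both calls were lost with the chromosome Y covariate, and that of Meg3 also without sham replicate 3 or overload replicate 2. Of 129 pseudogenes 10 were called higher and 0 lower. Reads of a pseudogene and its parent gene may be split in counting, so these are uncertain. Of 18 genes of the mitochondrial genome 5 were called higher and 0 lower, and the 5 numbered 2, 2, 2, 5, 2 and 3 with each library left out in turn, and 2 with the chromosome Y covariate. The share of called genes grew with abundance, from 3.74% higher and 5.88% lower in the lowest of 5 equal bins of tested genes to 19.4% and 18.1% in the highest, so a missing call of a low gene says little.

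Processes were followed with 69 gene lists. In 18 of them more than 3 times the background share of members were called higher, and in 22 more than 3 times the background share were called lower. The first set included lists of cell division, protein synthesis, the secretory pathway and the actin cytoskeleton. It also held collagen processing, matricellular, hyaluronan, chemokine, proteasome and glycolytic genes. The second included, among others, resting progenitor genes, interferon-stimulated genes, detoxification enzymes and small proteoglycans. Of the called genes, 733 were in at least 1 list and 1035 (58.5%) in none. The lists held 1833 tested genes, so 733 of 1833 were called, against 21.7% of all tested genes. The lists were chosen with earlier results of these data known. The numbers of lists past the background therefore describe the lists and are no test.

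**Figure D3:**
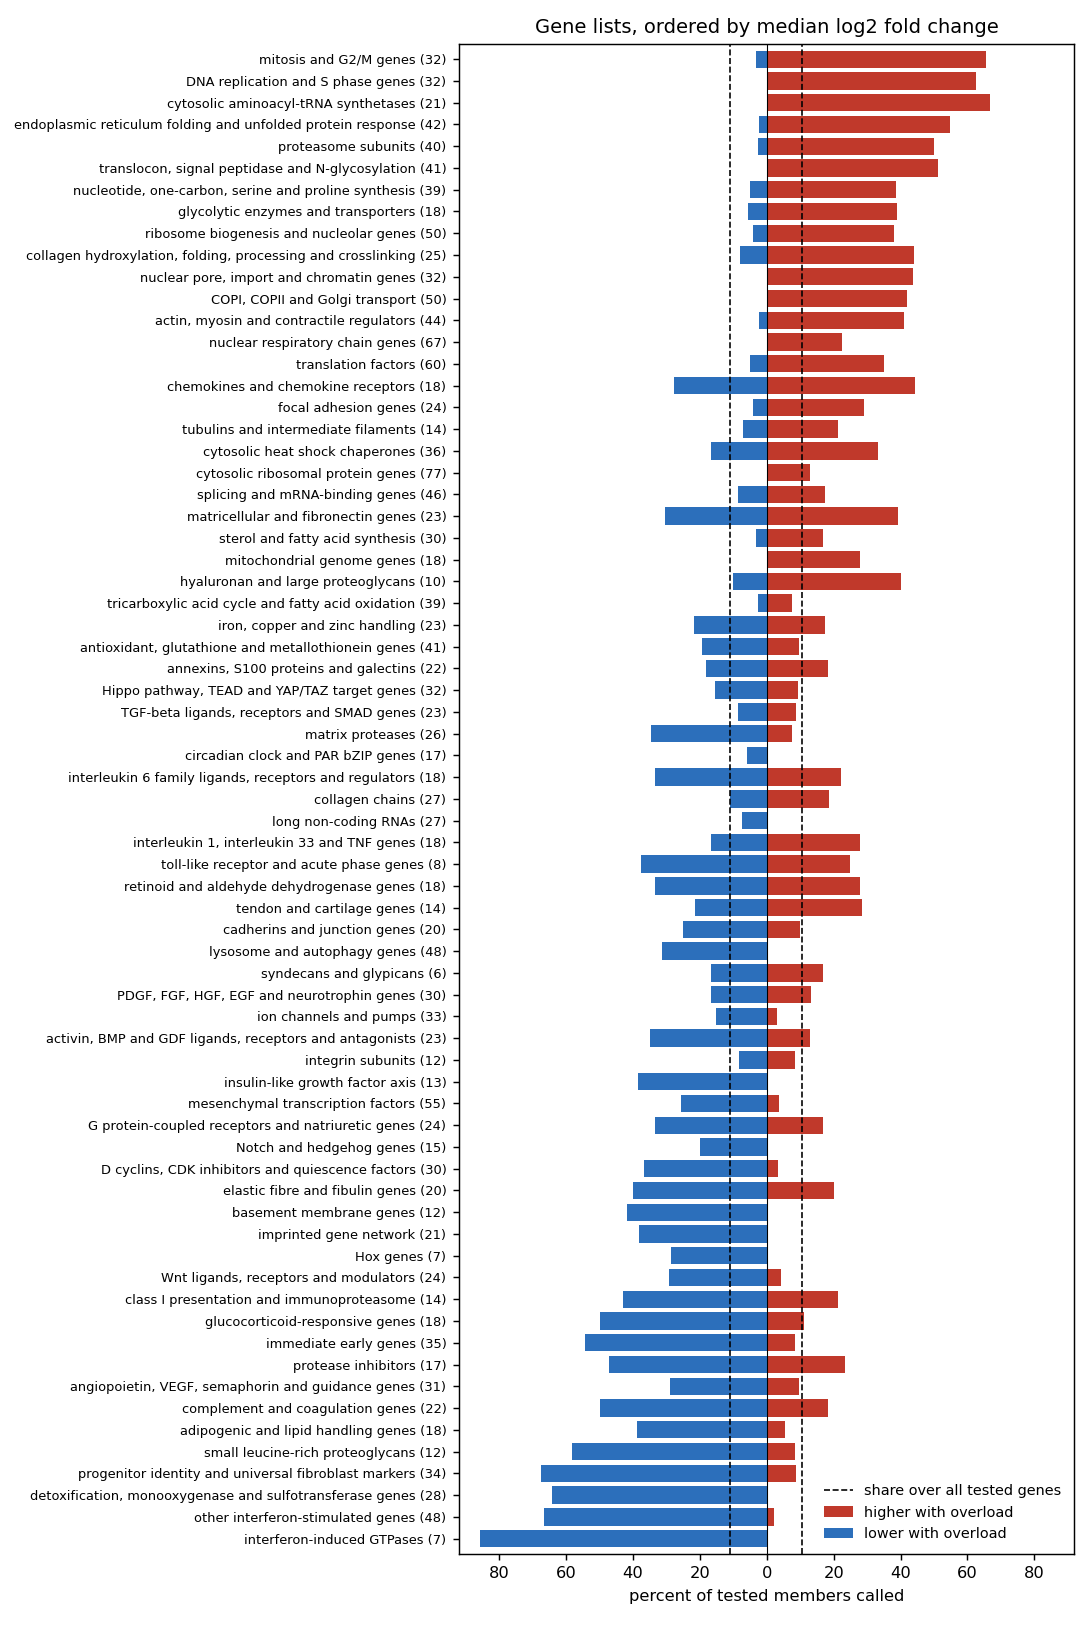
Percent of tested members called higher (red, to the right) and lower (blue, to the left) with overload in each of the 69 gene lists, ordered from the highest median log2 fold change at the top to the lowest at the bottom, with the number of tested members in brackets. Dashed lines mark the shares over all tested genes, 10.6% and 11%.

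Collagen genes were called in both directions, the lower ones at about the background share. Among collagen chains 5 of 27 tested members (18.5%) were called higher and 3 (11.1%) lower, against 10.6% and 11% of all tested genes. Their median log2 fold change was -0.27. Col3a1 (chromosome 1, 45311538 to 45349706, GRCm38), a fibrillar collagen of loose connective tissue, stood at 14269, 11961 and 12191 CPM in sham and 34233, 46393 and 30573 CPM in overload (log2 fold change 1.53 ± 0.27, edgeR adjusted p = 0.000281). Col5a2, a chain that controls fibril diameter, stood at 522, 425 and 467 CPM in sham and 1223, 1960 and 1374 CPM in overload (log2 fold change 1.69 ± 0.25, edgeR adjusted p = 3.84e-05). Col8a1, a short-chain collagen, went from 56.3, 39.6 and 32.4 CPM in sham to 472, 512 and 487 CPM in overload (log2 fold change 3.5 ± 0.32, edgeR adjusted p = 7.26e-08). In each of these every overloaded library lay above every sham library. Col1a2, the partner chain of Col1a1 in type I collagen, stood at 10274, 10528 and 9434 CPM in sham and 16883, 16615 and 13879 CPM in overload and did not pass (log2 fold change 0.65 ± 0.25, edgeR adjusted p = 0.0647), whereas Col1a1 rose by 1.43 ± 0.26 (log2). Col6a6, a chain of the beaded-filament collagen VI, fell from 38.3, 35.5 and 32.4 CPM in sham to 8.61, 3.89 and 7.0 CPM in overload (log2 fold change -2.54 ± 0.45, edgeR adjusted p = 0.000239). The 3 lower calls became 7 without overload replicate 1 and 2 without overload replicate 2 or overload replicate 3.

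The enzymes and chaperones that hydroxylate, fold and crosslink collagen were more uniform: 11 of 25 tested members were called higher and 2 lower, with a median log2 fold change of 0.71. Lox, the lysyl oxidase that starts crosslinking, stood at 36, 93 and 51.8 CPM in sham and 853, 1262 and 1097 CPM in overload (log2 fold change 4.09 ± 0.33, edgeR adjusted p = 1.14e-08). P3h1, a prolyl 3-hydroxylase, stood at 18, 24.6 and 19.4 CPM in sham and 115, 130.5 and 92.2 CPM in overload (log2 fold change 2.40 ± 0.31, edgeR adjusted p = 5.48e-06). Plod2, a lysyl hydroxylase of the collagen telopeptides, stood at 167, 146 and 152 CPM in sham and 415, 565 and 525 CPM in overload (log2 fold change 1.70 ± 0.26, edgeR adjusted p = 4.11e-05). Both lay higher in every overloaded library than in any sham library. Pcolce, which enhances removal of the collagen C-propeptide, stood at 412, 398 and 272 CPM in sham and 319, 409.6 and 350.2 CPM in overload, with overlapping groups (log2 fold change -0.01 ± 0.24, edgeR adjusted p = 0.985). Its relative Pcolce2 fell from 173, 191 and 156 CPM in sham to 37.9, 37 and 42 CPM in overload (log2 fold change -2.16 ± 0.24, edgeR adjusted p = 9.39e-07), and in cdKO by -0.73 (adjusted p = 0.042). Colgalt2, a collagen galactosyltransferase, fell by 1.69 ± 0.34 (log2).

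Small leucine-rich proteoglycans, which bind collagen fibrils and growth factors, were mostly lower: 1 of 12 tested members were called higher and 7 lower, with a median log2 fold change of -1.28. Dcn (decorin; chromosome 10, 97479609 to 97518143) stood at 22066, 31327 and 25354 CPM in sham and 6875, 4821 and 4026 CPM in overload (log2 fold change -2.32 ± 0.30, edgeR adjusted p = 7.42e-06), one of the largest losses in CPM of any gene. Prelp, which links basement membranes to collagen, stood at 838, 707 and 943 CPM in sham and 320.5, 175 and 120.2 CPM in overload (log2 fold change -2.03 ± 0.30, edgeR adjusted p = 3.32e-05). Ogn (osteoglycin) stood at 847, 1513 and 1150 CPM in sham and 481, 324 and 261 CPM in overload (log2 fold change -1.73 ± 0.27, edgeR adjusted p = 6.10e-05). The groups did not overlap in these genes, nor in Ecm2, an extracellular matrix protein, at 159.9, 238 and 288 CPM in sham and 74.1, 51.9 and 26.9 CPM in overload (log2 fold change -2.18 ± 0.32, edgeR adjusted p = 3.32e-05). In all 4 genes overload replicate 1 was the least reduced library. Bgn (biglycan) was the member called higher, at 590.0, 696 and 726 CPM in sham and 1625, 1514 and 1636 CPM in overload (log2 fold change 1.25 ± 0.24, edgeR adjusted p = 0.000619). Aspn (asporin) stood at 173, 190.0 and 149 CPM in sham and 227, 224 and 253 CPM in overload and did not pass (log2 fold change 0.45 ± 0.22, edgeR adjusted p = 0.152). Decorin and biglycan, close relatives in sequence, therefore changed in opposite directions with no overlap of the groups in either.

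Elastic fibre and fibulin genes were also split: 4 of 20 tested members were called higher and 8 lower, with a median log2 fold change of -0.73. The fibulin Fbln1 fell from 58.6, 113 and 97.2 CPM in sham to 37.9, 26 and 15.2 CPM in overload (log2 fold change -1.82 ± 0.37, edgeR adjusted p = 0.000978). Fbln5, which organises elastic fibres, fell from 180.2, 491 and 214 CPM in sham to 93, 50.6 and 42 CPM in overload (log2 fold change -2.32 ± 0.38, edgeR adjusted p = 0.000293). Ltbp4, a latent TGF-beta binding protein needed for elastogenesis, stood at 468, 629 and 667 CPM in sham and 221, 109.7 and 74.7 CPM in overload (log2 fold change -2.15 ± 0.33, edgeR adjusted p = 6.85e-05). Its relative Ltbp2 had no count in sham and 91 counts in overload, at least 3.67-fold higher against a floor of 3 counts per library. Emilin1, an elastic fibre glycoprotein, rose from 33.8, 27.3 and 29.2 CPM in sham to 89.6, 133 and 81.7 CPM in overload (log2 fold change 1.78 ± 0.35, edgeR adjusted p = 0.000773). Fbn1 (fibrillin-1), at 909.8, 722 and 583 CPM in sham and 1191, 1188 and 1130 CPM in overload, missed the threshold (log2 fold change 0.66 ± 0.24, edgeR adjusted p = 0.0517). The 4 higher calls numbered 4, 4, 3, 5, 2 and 2 with each library left out in turn, and 3 with the chromosome Y covariate. The 8 lower calls numbered 6, 7, 8, 10, 6 and 7 with each library left out in turn, and 5 with the chromosome Y covariate.

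Matricellular proteins, which sit in the matrix and signal without building fibres, held large changes in both directions: 9 of 23 tested members were called higher and 7 lower, with a median log2 fold change of 0.26. Tnc (tenascin-C; chromosome 4, 63959785 to 64047015) stood at 9.01, 0 and 13 CPM in sham and 1029, 1896 and 1647 CPM in overload. Postn (periostin; chromosome 3, 54361109 to 54391037) stood at 24.8, 60.2 and 55.1 CPM in sham and 1356, 2935 and 2163 CPM in overload (log2 fold change 5.51 ± 0.41, edgeR adjusted p = 1.14e-08). Ccn4, a CCN family protein, went from 13.5, 17.8 and 3.24 CPM in sham to 127, 243 and 205 CPM in overload (log2 fold change 3.88 ± 0.40, edgeR adjusted p = 3.85e-07). None of these 3 overlapped between the groups. Thbs1 (thrombospondin-1) stood at 1007, 844 and 829 CPM in sham and 2700, 2513 and 3090 CPM in overload (log2 fold change 1.63 ± 0.30, edgeR adjusted p = 0.000379). In the other direction Ccn3 went from 159.9, 180.5 and 110.2 CPM in sham to 10.3, 8.44 and 5.84 CPM in overload (log2 fold change -4.21 ± 0.36, edgeR adjusted p = 2.30e-08). Tgfbi fell from 338, 418 and 379 CPM in sham to 138, 106 and 78.2 CPM in overload (log2 fold change -1.83 ± 0.25, edgeR adjusted p = 1.46e-05). Vtn (vitronectin) fell from 94.6, 133 and 152 CPM in sham to 32.7, 30.5 and 12.8 CPM in overload (log2 fold change -2.30 ± 0.37, edgeR adjusted p = 0.000107). These 3 were lower in each overloaded library. Within the CCN family, Ccn4 rose and Ccn3 fell in all libraries without overlap, while Ccn2 stood at 153, 309 and 191 CPM in sham and 295, 1348 and 1619 CPM in overload, with overload replicate 1 below sham replicate 2. The call of Ccn2 (log2 fold change 2.31 ± 0.57, edgeR adjusted p = 0.0129) was lost without sham replicate 1 and with the chromosome Y covariate.

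Of the enzymes that cut matrix and their inhibitors, more were lower than higher. Among matrix proteases 2 of 26 tested members were called higher and 9 lower, with a median log2 fold change of -0.24. Htra3, a secreted serine protease, stood at 1013, 1060 and 1147 CPM in sham and 424, 327 and 199.6 CPM in overload (log2 fold change -1.76 ± 0.31, edgeR adjusted p = 0.000199). Adam33, a membrane metalloprotease, stood at 38.3, 30.1 and 32.4 CPM in sham and 5.17, 3.25 and 2.33 CPM in overload (log2 fold change -3.23 ± 0.49, edgeR adjusted p = 4.47e-05). Plau, the urokinase plasminogen activator, stood at 534, 715 and 444 CPM in sham and 345, 651 and 560.3 CPM in overload, with overlapping groups (log2 fold change -0.12 ± 0.28, edgeR adjusted p = 0.787). Htra3 and Adam33 were thus lower in each overloaded library and Plau was not. Among protease inhibitors 4 of 17 tested members were called higher and 8 lower, with a median log2 fold change of -0.94. Timp1 stood at 11.3, 9.57 and 19.4 CPM in sham and 656, 1938 and 1816 CPM in overload (log2 fold change 6.87 ± 0.58, edgeR adjusted p = 5.42e-07). Timp2, of the same family of metalloproteinase inhibitors, stood at 2135, 2473 and 2167 CPM in sham and 898, 522 and 431 CPM in overload (log2 fold change -1.88 ± 0.28, edgeR adjusted p = 3.64e-05). The TIMP family thus held members on both sides. The serpin Serpine2 fell from 338, 648 and 544 CPM in sham to 252, 175 and 156 CPM in overload (log2 fold change -1.40 ± 0.28, edgeR adjusted p = 0.000821). The 8 lower inhibitors numbered 6, 6, 6, 9, 6 and 5 with each library left out in turn, and 4 with the chromosome Y covariate.

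Basement membrane genes had 0 of 12 tested members called higher and 5 lower, with a median log2 fold change of -0.77. Nid1 (nidogen-1, which bridges laminin and collagen IV) stood at 962, 1379 and 1153 CPM in sham and 536, 423 and 455 CPM in overload (log2 fold change -1.31 ± 0.27, edgeR adjusted p = 0.000963). Lamc1, the common laminin gamma chain, stood at 466, 427 and 450.3 CPM in sham and 319, 282 and 269.7 CPM in overload and did not pass (log2 fold change -0.63 ± 0.23, edgeR adjusted p = 0.0554). The 5 lower calls numbered 3, 2, 2, 7, 1 and 2 with each library left out in turn, and 2 with the chromosome Y covariate. The part of the lower endothelial and pericyte markers in these values was not tested. Hyaluronan and large proteoglycan genes had 4 higher and 1 lower of 10, median 0.22. Cd44, the hyaluronan receptor, stood at 304, 276 and 181 CPM in sham and 1018, 1235 and 956 CPM in overload (log2 fold change 2.06 ± 0.34, edgeR adjusted p = 0.000128). Vcan (versican) stood at 248, 299 and 224 CPM in sham and 651, 793 and 913 CPM in overload (log2 fold change 1.60 ± 0.24, edgeR adjusted p = 4.29e-05). The synthase Has1, at 1135, 2518 and 2553 CPM in sham and 1599, 1817 and 1555 CPM in overload, overlapped between groups (log2 fold change -0.32 ± 0.30, edgeR adjusted p = 0.466). Itih5, an inter-alpha-trypsin inhibitor heavy chain, fell from 581, 663 and 402 CPM in sham to 245, 66.2 and 64.2 CPM in overload (log2 fold change -2.19 ± 0.47, edgeR adjusted p = 0.00414). Of the last pair, Itih5 was called and Has1 was not. Prg4 (lubricin) stood at 552, 718 and 946 CPM in sham and 5117, 6551 and 7228 CPM in overload (log2 fold change 3.10 ± 0.30, edgeR adjusted p = 9.90e-08).

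Genes of the actin cytoskeleton were called higher more often than lower: 18 of 44 tested members were called higher and 1 lower, with a median log2 fold change of 0.65. The other 25 did not pass, and the summed level of the list went the other way, from 44287 to 52951 CPM in sham to 22117 to 29230 CPM in overload. Acta2, smooth muscle actin and the usual marker of myofibroblasts, stood at 18, 6.84 and 13 CPM in sham and 186, 336 and 304 CPM in overload (log2 fold change 4.54 ± 0.53, edgeR adjusted p = 1.80e-05). Myh9, a non-muscle myosin heavy chain, stood at 232, 134 and 159 CPM in sham and 327, 769 and 864 CPM in overload (log2 fold change 1.91 ± 0.33, edgeR adjusted p = 0.000239). Cald1 (caldesmon) stood at 286, 380.1 and 230.0 CPM in sham and 629, 887 and 1253 CPM in overload (log2 fold change 1.62 ± 0.28, edgeR adjusted p = 0.000164). Overload replicate 1 was the lowest of the 3 overloaded libraries for each, yet above every sham library. Actb, cytoplasmic beta-actin, stood at 5331, 4041 and 4034 CPM in sham and 4123, 9581 and 7297 CPM in overload, where overload replicate 1 lay within the sham range, and did not pass (log2 fold change 0.65 ± 0.29, edgeR adjusted p = 0.11). Gsn (gelsolin), a severing protein, was the member called lower and holds most of that sum in sham, at 31810, 41370 and 42434 CPM in sham and 8796, 6599 and 4542 CPM in overload (log2 fold change -2.54 ± 0.32, edgeR adjusted p = 5.74e-06). 

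Focal adhesion genes had 7 higher and 1 lower of 24, median 0.43. Actn1 (alpha-actinin-1), which ties actin to adhesions, stood at 58.6, 32.8 and 51.8 CPM in sham and 202, 328 and 287 CPM in overload (log2 fold change 2.56 ± 0.30, edgeR adjusted p = 1.67e-06). Flna (filamin A) stood at 63.1, 47.8 and 45.4 CPM in sham and 129, 139.6 and 137 CPM in overload (log2 fold change 1.37 ± 0.27, edgeR adjusted p = 0.000641). Pxn (paxillin) stood at 295, 362 and 308 CPM in sham and 257, 220.0 and 156 CPM in overload and did not pass (log2 fold change -0.62 ± 0.25, edgeR adjusted p = 0.0742). Integrin subunits had 1 higher and 1 lower of 12, median -0.47. Each share was 8.33%, under the 10.6% and 11% of all tested genes. Itga11, a collagen receptor subunit, was the lower one, at 90.1, 79.3 and 81 CPM in sham and 25.8, 10.4 and 8.17 CPM in overload (log2 fold change -2.62 ± 0.41, edgeR adjusted p = 6.85e-05). Every overloaded library was below every sham library for Itga11. Itgb1, the common beta subunit, stood at 401, 355 and 295 CPM in sham and 532, 533 and 539 CPM in overload and missed the threshold (log2 fold change 0.61 ± 0.23, edgeR adjusted p = 0.0567). Gpc3 (glypican-3), a cell surface proteoglycan, fell from 775, 1068 and 774 CPM in sham to 243, 242 and 307 CPM in overload (log2 fold change -1.73 ± 0.30, edgeR adjusted p = 0.000206). Of these 3 surface genes, Itga11 and Gpc3 were called. Among tubulins and intermediate filaments, Tubb5, a beta-tubulin, stood at 311, 414 and 188 CPM in sham and 718, 2221 and 1494 CPM in overload (log2 fold change 2.26 ± 0.39, edgeR adjusted p = 0.0005). Lmna (lamin A and C) stood at 486, 514 and 444 CPM in sham and 698, 729.6 and 649 CPM in overload (log2 fold change 0.52 ± 0.23, edgeR adjusted p = 0.11), which did not pass. S100a4, a calcium-binding protein of fibroblasts, and Lgals1 (galectin-1) rose by 1.52 ± 0.30 (log2) and 1.52 ± 0.25, while S100a6 differed by 0.17 ± 0.29 (adjusted p = 0.7).

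Among ligands and receptors of the interleukin 6 family, which signal through gp130 and STAT3, calls went both ways: 4 of 18 tested members were called higher and 6 lower, with a median log2 fold change of -0.26. Il11 (chromosome 7, 4772373 to 4782859), a fibroblast cytokine, stood at 4.50, 10.9 and 13 CPM in sham and 75.8, 230.4 and 252 CPM in overload (log2 fold change 4.30 ± 0.54, edgeR adjusted p = 2.95e-05). Lif (chromosome 11, 4257557 to 4272514), leukaemia inhibitory factor, stood at 27, 24.6 and 22.7 CPM in sham and 222, 469 and 501 CPM in overload (log2 fold change 4.0 ± 0.66, edgeR adjusted p = 0.0013). Clcf1, a ligand of the CNTF receptor, stood at 24.8, 8.20 and 13 CPM in sham and 127, 167 and 138 CPM in overload (log2 fold change 3.30 ± 0.40, edgeR adjusted p = 3.16e-06). None of these overlapped, and in cdKO their log2 fold changes were 3.54, 3.71 and 3.24. Lifr, the LIF receptor, fell from 117, 185 and 269 CPM in sham to 94.8, 46.7 and 39.7 CPM in overload (log2 fold change -1.69 ± 0.33, edgeR adjusted p = 0.000765). Socs3 (chromosome 11, 117966079 to 117970047), the feedback inhibitor of this pathway, stood at 1108, 1154 and 1613 CPM in sham and 283, 161 and 121 CPM in overload (log2 fold change -2.79 ± 0.52, edgeR adjusted p = 0.00189). Socs1 stood at 159.9, 174 and 117 CPM in sham and 44.8, 57.1 and 45.5 CPM in overload (log2 fold change -1.61 ± 0.29, edgeR adjusted p = 0.000262). Receptor and inhibitors were thus lower in each overloaded library. Il6 itself stood at 236, 391 and 330.5 CPM in sham and 293, 399.8 and 528 CPM in overload with overlapping groups (log2 fold change 0.35 ± 0.33, edgeR adjusted p = 0.475), and in cdKO it was called higher at a log2 fold change of 1.5 ± 0.33 (adjusted p = 0.00407). The difference between the genotypes was 1.16 ± 0.46 (log2) and did not pass (edgeR adjusted p = 0.925). The 6 lower calls of the family numbered 6, 4, 5, 7, 4 and 4 with each library left out in turn, and 3 with the chromosome Y covariate.

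**Figure D4:**
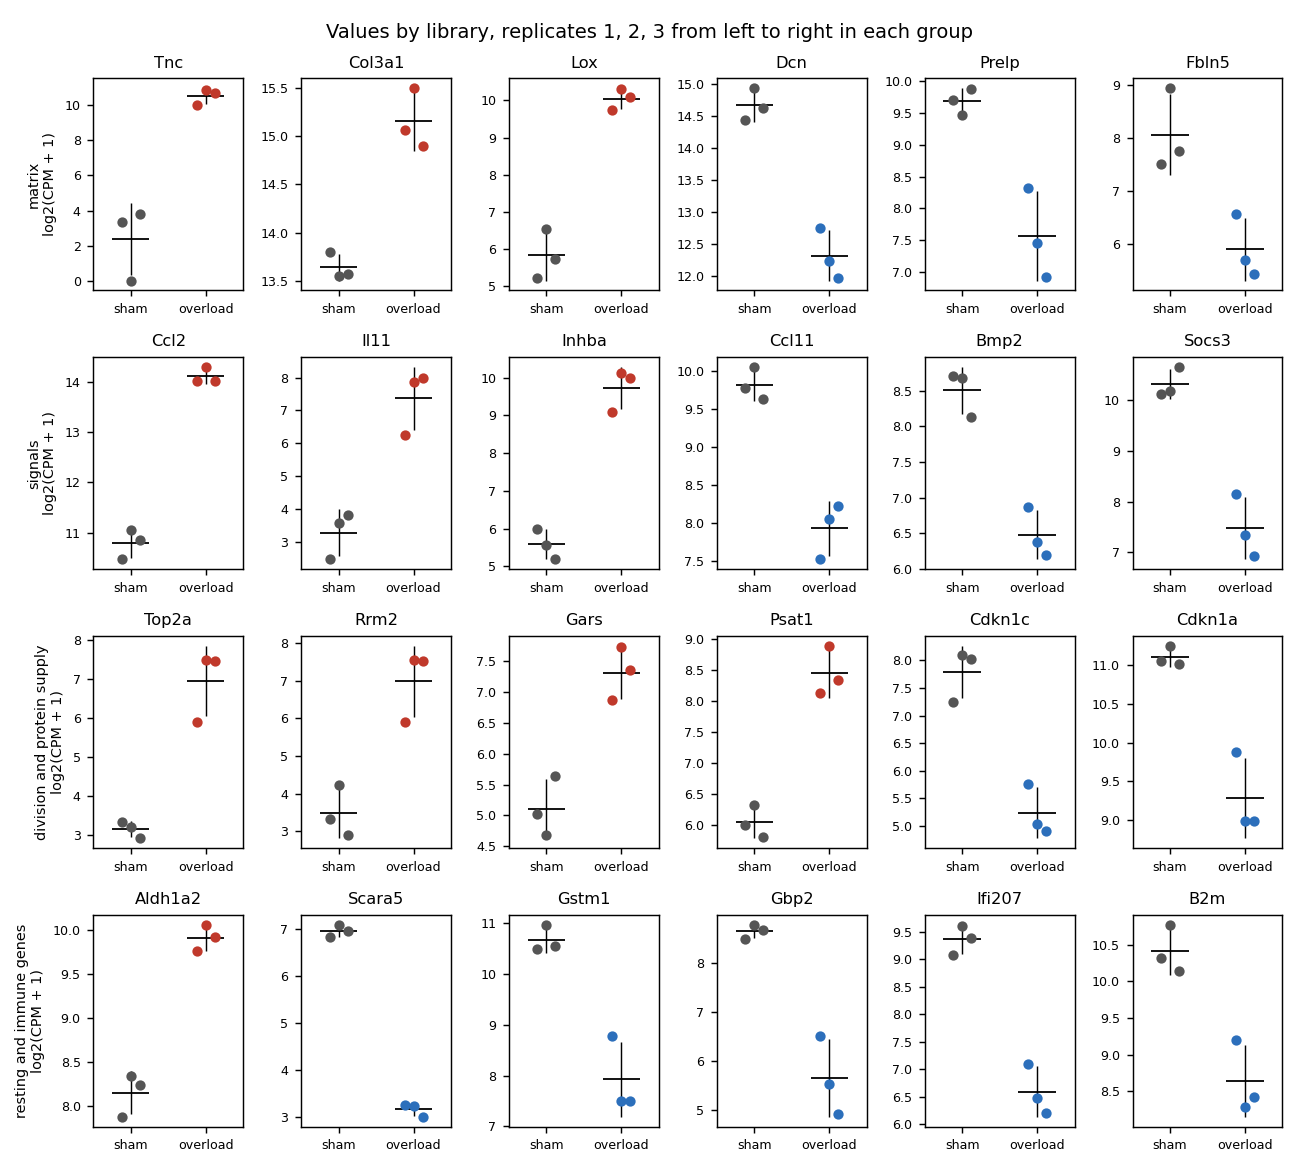
Log2(CPM + 1) of 24 genes in each control library, sham in grey and overload in red (called higher) or blue (called lower), replicates 1, 2 and 3 from left to right. Horizontal lines are group means, vertical lines are 1 SD (n = 3), each panel has its own axis, and the groups do not overlap in any panel.

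Chemokines were also called in both directions: 8 of 18 tested members were called higher and 5 lower, with a median log2 fold change of 0.57. Ccl2 (chromosome 11, 82035571 to 82037453), which attracts monocytes, stood at 1414, 2130 and 1850 CPM in sham and 16556, 20109 and 16575 CPM in overload (log2 fold change 3.30 ± 0.34, edgeR adjusted p = 2.85e-07). Cxcl5, which attracts neutrophils, stood at 31.5, 53.3 and 45.4 CPM in sham and 613, 1590 and 1265 CPM in overload (log2 fold change 4.71 ± 0.42, edgeR adjusted p = 2.84e-07). Cxcl14 stood at 838, 725 and 573 CPM in sham and 2081, 2830 and 2557 CPM in overload (log2 fold change 1.80 ± 0.25, edgeR adjusted p = 1.83e-05). These 3 rose in each overloaded library. Ccl11 (eotaxin), which attracts eosinophils, went the other way, at 874, 1064 and 794 CPM in sham and 183, 264 and 298 CPM in overload (log2 fold change -1.87 ± 0.30, edgeR adjusted p = 6.85e-05). Ackr3, a scavenger receptor of Cxcl12, stood at 299.5, 388 and 292 CPM in sham and 94.8, 105 and 117 CPM in overload (log2 fold change -1.63 ± 0.23, edgeR adjusted p = 1.93e-05). Cxcl12 itself stood at 293, 327 and 269 CPM in sham and 257, 156 and 155 CPM in overload, without passing (log2 fold change -0.66 ± 0.24, edgeR adjusted p = 0.0517). Cxcl1, another ligand that attracts neutrophils, did not pass (log2 fold change 0.60 ± 0.29, edgeR adjusted p = 0.143). The 5 lower chemokine calls numbered 4, 4, 4, 5, 3 and 3 with each library left out in turn, and 3 with the chromosome Y covariate. Of the interleukin 1, interleukin 33 and TNF genes, 5 of 18 were called higher (27.8%) and 3 lower (16.7%), against 10.6% and 11% of all tested genes. The 5 became 3 without sham replicate 2. Il33, an alarmin, stood at 124, 122 and 100.4 CPM in sham and 360.1, 243 and 239 CPM in overload (log2 fold change 1.27 ± 0.27, edgeR adjusted p = 0.00137). Its receptor Il1rl1 stood at 6.76, 4.10 and 19.4 CPM in sham and 460.0, 1170 and 1003 CPM in overload (log2 fold change 6.68 ± 0.59, edgeR adjusted p = 9.49e-07), so ligand and receptor transcripts both rose in this sorted population. Irak3, an inhibitor of interleukin 1 receptor signalling, fell from 60.8, 97.1 and 117 CPM in sham to 39.6, 24 and 22.2 CPM in overload (log2 fold change -1.71 ± 0.32, edgeR adjusted p = 0.000501).

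TGF-beta ligands, receptors and SMAD genes were close to the background, with 2 higher and 2 lower of 23, median -0.19. Tgfb2 stood at 164, 209 and 204 CPM in sham and 221, 166 and 158 CPM in overload, with overlapping groups (log2 fold change -0.09 ± 0.24, edgeR adjusted p = 0.81). Pmepa1, a target and feedback regulator of the pathway, stood at 169, 208 and 123 CPM in sham and 399.7, 467 and 437 CPM in overload (log2 fold change 1.36 ± 0.24, edgeR adjusted p = 0.000244). Activin and BMP genes changed more: 3 of 23 tested members were called higher and 8 lower, with a median log2 fold change of -0.46. Inhba (chromosome 13, 16011851 to 16031621), the activin A subunit, stood at 63.1, 46.5 and 35.6 CPM in sham and 546, 1110 and 1010 CPM in overload (log2 fold change 4.18 ± 0.48, edgeR adjusted p = 1.80e-05). Bmp2 stood at 417, 410.1 and 279 CPM in sham and 115, 81.8 and 72.4 CPM in overload (log2 fold change -2.06 ± 0.26, edgeR adjusted p = 3.73e-06). Gdf10 stood at 83.3, 133 and 129.6 CPM in sham and 62, 42.2 and 22.2 CPM in overload (log2 fold change -1.48 ± 0.32, edgeR adjusted p = 0.00167). The 3 ligands did not overlap between the groups. The BMP target Id3 stood at 409.9, 629 and 641 CPM in sham and 174, 114 and 51.4 CPM in overload (log2 fold change -2.32 ± 0.34, edgeR adjusted p = 4.91e-05). The BMP antagonist Chrd (chordin) fell as well, from 54, 31.4 and 42.1 CPM in sham to 8.61, 9.74 and 15.2 CPM in overload (log2 fold change -1.89 ± 0.43, edgeR adjusted p = 0.0026). Fst (follistatin), the activin antagonist, stood at 234, 364 and 356 CPM in sham and 269, 227 and 249.8 CPM in overload and did not pass (log2 fold change -0.36 ± 0.24, edgeR adjusted p = 0.298). The activin subunit thus rose without a called change of follistatin, and BMP ligands fell together with an antagonist.

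The insulin-like growth factor axis had 0 higher and 5 lower of 13, median -0.56, and Igfbp6, a binding protein with a preference for IGF2, stood at 1883, 2176 and 1759 CPM in sham and 753, 399.8 and 339 CPM in overload (log2 fold change -1.97 ± 0.30, edgeR adjusted p = 3.64e-05). Igfbp4, at 3700, 4063 and 3288 CPM in sham and 4104, 3686 and 2597 CPM in overload, did not pass (log2 fold change -0.09 ± 0.27, edgeR adjusted p = 0.841). The 5 calls of this axis numbered 2, 1, 4, 5, 1 and 1 with each library left out in turn, and 2 with the chromosome Y covariate. Wnt genes had 1 higher and 7 lower of 24, median -0.85. The 7 lower Wnt calls numbered 4, 2, 4, 7, 2 and 2 with each library left out in turn, and 6 with the chromosome Y covariate. Tcf7l1, a transcription factor of the Wnt pathway, fell from 180.2, 123 and 133 CPM in sham to 82.7, 42.8 and 38.5 CPM in overload (log2 fold change -1.45 ± 0.33, edgeR adjusted p = 0.00294). Notch and hedgehog genes had 0 higher and 3 lower of 15, median -0.69, with Boc, a hedgehog co-receptor, at 96.8, 68.4 and 77.8 CPM in sham and 39.6, 26 and 12.8 CPM in overload (log2 fold change -1.66 ± 0.34, edgeR adjusted p = 0.00107). Among PDGF, FGF, HGF, EGF and neurotrophin genes 4 of 30 tested members were called higher and 5 lower, with a median log2 fold change of -0.43. These shares, 13.3% and 16.7%, were near the 10.6% and 11% of all tested genes. Those 5 lower calls numbered 2, 2, 3, 7, 2 and 2 with each library left out in turn, and 3 with the chromosome Y covariate, and the 4 higher calls became 2 with that covariate. Ereg (epiregulin), an EGF receptor ligand, had 2 counts in the sham group and 169 in the overload group, a ratio of 42.1 per depth with a 95% counting interval of 11.5 to 350.6. Ntf3 (neurotrophin-3) stood at 24.8, 26 and 29.2 CPM in sham and 6.89, 0 and 0 CPM in overload (log2 fold change -4.01 ± 0.81, edgeR adjusted p = 0.000966).

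Guidance and vascular factors had 3 higher and 9 lower of 31, median -1.0. Angptl4, a lipoprotein lipase inhibitor, stood at 2.25, 10.9 and 3.24 CPM in sham and 43.1, 58.4 and 49 CPM in overload (log2 fold change 2.94 ± 0.54, edgeR adjusted p = 0.000351). Its relative Angptl1 fell from 153, 180.5 and 149 CPM in sham to 46.5, 62.3 and 39.7 CPM in overload (log2 fold change -1.68 ± 0.26, edgeR adjusted p = 5.58e-05). Angptl7 fell from 87.8, 148 and 152 CPM in sham to 27.6, 25.3 and 22.2 CPM in overload (log2 fold change -2.37 ± 0.29, edgeR adjusted p = 3.39e-06). The angiopoietin-like family therefore held calls in both directions with no overlap in these 3 genes. Vegfa, at 185, 182 and 191 CPM in sham and 183, 279.8 and 337 CPM in overload, overlapped between groups (log2 fold change 0.53 ± 0.24, edgeR adjusted p = 0.119). The 9 lower calls numbered 6, 9, 7, 18, 5 and 5 with each library left out in turn, and 5 with the chromosome Y covariate.

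Receptors coupled to G proteins had 4 higher and 8 lower of 24, median -0.62. F2rl1 and F2r, which encode the protease-activated receptors PAR2 and PAR1, both rose. F2rl1 stood at 4.50, 6.84 and 6.48 CPM in sham and 122, 164 and 129.6 CPM in overload (log2 fold change 4.49 ± 0.42, edgeR adjusted p = 8.09e-08). F2r stood at 119, 144 and 168 CPM in sham and 327, 432 and 339.7 CPM in overload (log2 fold change 1.36 ± 0.28, edgeR adjusted p = 0.0011). Ramp2 and Ramp1, accessory proteins of the adrenomedullin and CGRP receptors, both fell. Ramp2 stood at 209, 334 and 295 CPM in sham and 49.97, 44.8 and 42 CPM in overload (log2 fold change -2.62 ± 0.26, edgeR adjusted p = 2.30e-07). Ramp1 stood at 27, 58.8 and 16.2 CPM in sham and 1.72, 6.49 and 2.33 CPM in overload (log2 fold change -3.09 ± 0.58, edgeR adjusted p = 0.000524). The ligand Adm (adrenomedullin) stood at 268, 561 and 463 CPM in sham and 162, 72 and 39.7 CPM in overload, and its call (log2 fold change -2.29 ± 0.53, edgeR adjusted p = 0.00844) was lost with the chromosome Y covariate. The 8 lower calls numbered 6, 7, 7, 9, 5 and 5 with each library left out in turn, and 6 with the chromosome Y covariate. In cdKO Ramp2 fell by 1.93 (adjusted p = 2.40e-05) and F2rl1 rose by 3.57 (adjusted p = 2.81e-05).

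Hippo pathway genes and YAP and TAZ targets were near the background: 3 of 32 tested members were called higher and 5 lower, with a median log2 fold change of -0.15. Yap1 stood at 108, 91.6 and 94 CPM in sham and 91.3, 47.4 and 39.7 CPM in overload and did not pass (log2 fold change -0.76 ± 0.30, edgeR adjusted p = 0.0699). Wwtr1 stood at 124, 108 and 126 CPM in sham and 174, 125 and 125 CPM in overload (log2 fold change 0.24 ± 0.24, edgeR adjusted p = 0.507). The 5 lower calls numbered 3, 3, 3, 6, 3 and 4 with each library left out in turn, and 4 with the chromosome Y covariate. F3 (tissue factor) fell from 104, 193 and 104 CPM in sham to 27.6, 36.3 and 45.5 CPM in overload (log2 fold change -1.88 ± 0.33, edgeR adjusted p = 0.000231). The TEAD site (GGAATG, either strand) was present in 13 of the 27 members with a promoter window (48.1%), against 14.6% of all 27025 windows. Windows run from 250 bases before to 50 after the RefSeq gene start on GRCm38.p6. The list was assembled in part from known TEAD targets, so that share describes the list and not the change.

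Transcription factors of mesenchymal cells had 2 higher and 14 lower of 55, median -0.60. Runx1, a factor of growing and injured mesenchyme, stood at 49.5, 43.7 and 64.8 CPM in sham and 207, 203 and 202 CPM in overload (log2 fold change 1.99 ± 0.27, edgeR adjusted p = 1.01e-05). Its groups lay apart with little spread within either. Osr2, a factor of developing connective tissue, stood at 78.8, 79.3 and 64.8 CPM in sham and 32.7, 25.3 and 21 CPM in overload (log2 fold change -1.53 ± 0.28, edgeR adjusted p = 0.000382). Klf2 stood at 162, 163 and 159 CPM in sham and 68.9, 36.3 and 33.9 CPM in overload (log2 fold change -1.85 ± 0.30, edgeR adjusted p = 8.91e-05). Klf9 stood at 971, 1349 and 1137 CPM in sham and 562, 469 and 381 CPM in overload (log2 fold change -1.30 ± 0.24, edgeR adjusted p = 0.000431). Overload replicate 1 was the least reduced library for these 3. Sox9, a factor of cartilage and tendon progenitors, stood at 360.3, 271 and 343 CPM in sham and 195, 274 and 277 CPM in overload with overlapping groups (log2 fold change -0.38 ± 0.24, edgeR adjusted p = 0.279). The 14 lower calls numbered 11, 9, 12, 20, 10 and 12 with each library left out in turn, and 18 with the chromosome Y covariate.

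Immediate early genes, which are induced within minutes by growth factors and stress, were called lower more often than higher: 3 of 35 tested members were called higher and 19 lower, with a median log2 fold change of -0.93. Junb stood at 2232, 3818 and 2874 CPM in sham and 1182, 613 and 611 CPM in overload (log2 fold change -1.90 ± 0.31, edgeR adjusted p = 9.33e-05). Zfp36 (tristetraprolin, which destabilises cytokine transcripts) stood at 619, 703 and 648 CPM in sham and 195, 186 and 123 CPM in overload (log2 fold change -1.97 ± 0.29, edgeR adjusted p = 3.36e-05). Myc stood at 221, 279 and 194 CPM in sham and 96.5, 95.4 and 93.4 CPM in overload (log2 fold change -1.29 ± 0.28, edgeR adjusted p = 0.00166). The 3 fell in each overloaded library. Jun, of the same family as Junb, at 1417, 1351 and 1646 CPM in sham and 1532, 978 and 721 CPM in overload, overlapped between groups (log2 fold change -0.45 ± 0.31, edgeR adjusted p = 0.321). Ier3 went the other way, from 282, 585 and 544 CPM in sham to 934, 2028 and 1804 CPM in overload (log2 fold change 1.76 ± 0.34, edgeR adjusted p = 0.000765). Among genes induced by glucocorticoids 2 of 18 tested members were called higher and 9 lower, with a median log2 fold change of -0.87. Tsc22d3 (GILZ) stood at 131, 152 and 104 CPM in sham and 29.3, 28.6 and 26.9 CPM in overload (log2 fold change -2.20 ± 0.34, edgeR adjusted p = 5.58e-05). Hsd11b1, which regenerates active glucocorticoid inside cells, stood at 203, 245 and 175 CPM in sham and 65.5, 48 and 65.4 CPM in overload (log2 fold change -1.83 ± 0.24, edgeR adjusted p = 1.00e-05). Sgk1, a kinase induced by glucocorticoids, at 1054, 1163 and 1254 CPM in sham and 1017, 1129 and 899 CPM in overload, did not pass (log2 fold change -0.19 ± 0.25, edgeR adjusted p = 0.625).

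Genes that mark resting progenitors and fibroblasts of many tissues were mostly lower: 3 of 34 tested members were called higher and 23 lower, with a median log2 fold change of -1.50. Scara5 (chromosome 14, 65666403 to 65764826), a ferritin receptor, stood at 113, 135 and 123 CPM in sham and 8.61, 8.44 and 7.0 CPM in overload (log2 fold change -3.92 ± 0.38, edgeR adjusted p = 1.32e-07). Clec3b (tetranectin) stood at 291, 369 and 288 CPM in sham and 53.4, 25.3 and 23.3 CPM in overload (log2 fold change -3.29 ± 0.46, edgeR adjusted p = 0.000121). Dpep1, a membrane dipeptidase, stood at 367, 502 and 340.2 CPM in sham and 89.6, 63 and 60.7 CPM in overload (log2 fold change -2.53 ± 0.27, edgeR adjusted p = 4.73e-07). All 3 were lower in each overloaded library than in any sham library. Cd55, a complement regulator of the adventitial type of progenitor, stood at 128, 150.4 and 136 CPM in sham and 46.5, 26.6 and 30.4 CPM in overload (log2 fold change -2.06 ± 0.33, edgeR adjusted p = 9.33e-05). Dpp4 stood at 51.8, 41 and 48.6 CPM in sham and 13.8, 9.09 and 5.84 CPM in overload (log2 fold change -2.32 ± 0.44, edgeR adjusted p = 0.000515). Smoc2, a matricellular protein of fibroblasts, stood at 1527, 1677 and 1354 CPM in sham and 639, 498 and 449 CPM in overload (log2 fold change -1.53 ± 0.25, edgeR adjusted p = 0.000107). The groups lay apart for these 3 as well. Inmt, an N-methyltransferase, stood at 1153, 4160 and 3301 CPM in sham and 221, 63.6 and 47.9 CPM in overload, but its call (log2 fold change -4.75 ± 1.13, edgeR adjusted p = 0.018) was lost without overload replicate 2 or overload replicate 3. Fbn1 and Ly6a did not pass, and Cxcl14 rose by 1.80 ± 0.25 (log2). In cdKO the log2 fold change of Scara5 was -2.56 ± 0.34 and that of Dpep1 was -2.30 ± 0.27.

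Detoxification genes were called in the lower direction only: 0 of 28 tested members were called higher and 18 lower, with a median log2 fold change of -1.66. Abca8a, a lipid transporter gene, stood at 1752, 1783 and 1461 CPM in sham and 631, 276 and 216 CPM in overload (log2 fold change -2.17 ± 0.36, edgeR adjusted p = 0.000256). Abca8b, its neighbour, stood at 302, 301 and 337 CPM in sham and 91.3, 42.8 and 42 CPM in overload (log2 fold change -2.46 ± 0.34, edgeR adjusted p = 2.05e-05). Cyp2d22, a cytochrome P450, stood at 155, 157 and 159 CPM in sham and 44.8, 15.6 and 10.5 CPM in overload (log2 fold change -2.86 ± 0.36, edgeR adjusted p = 7.00e-06). All 3 were lower in each overloaded library, as was Ephx1, the microsomal epoxide hydrolase, at 153, 138 and 113 CPM in sham and 44.8, 20.1 and 17.5 CPM in overload (log2 fold change -2.39 ± 0.34, edgeR adjusted p = 1.90e-05). Por, the reductase that serves the P450 enzymes, stood at 29.3, 43.7 and 35.6 CPM in sham and 37.9, 28.6 and 28 CPM in overload and did not pass (log2 fold change -0.25 ± 0.33, edgeR adjusted p = 0.625). Por was thus not called, unlike the enzyme it serves, Cyp2d22. The glutathione transferase Gstm1 (chromosome 3, 108012255 to 108017973) fell from 1444, 2014 and 1497 CPM in sham to 439, 179 and 179.8 CPM in overload (log2 fold change -2.65 ± 0.34, edgeR adjusted p = 1.00e-05). Its relative Gstt1 stood at 159.9, 194 and 117 CPM in sham and 48.2, 32.5 and 25.7 CPM in overload (log2 fold change -2.20 ± 0.32, edgeR adjusted p = 2.67e-05). Antioxidant genes as a list were mixed (4 higher and 8 lower of 41, median -0.03). The shares were 9.76% and 19.5%, against 10.6% and 11% of all tested genes. Their higher and lower calls were 1 and 5 with the chromosome Y covariate, and 7 were called higher without overload replicate 1 and 2 without sham replicate 1. The mitochondrial peroxiredoxin Prdx5 rose from 99.1, 69.7 and 68 CPM in sham to 198, 359 and 297 CPM in overload (log2 fold change 1.86 ± 0.27, edgeR adjusted p = 2.32e-05). Hmox1 (haem oxygenase 1), at 2419, 3515 and 3596 CPM in sham and 1990, 1678 and 1501 CPM in overload, did not pass (log2 fold change -0.88 ± 0.44, edgeR adjusted p = 0.169).

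Retinoid genes were called in both directions. The list had 5 higher and 6 lower of 18, median -0.32. Rdh10, which oxidises retinol to retinal, stood at 63.1, 52 and 22.7 CPM in sham and 222, 232 and 209 CPM in overload (log2 fold change 2.21 ± 0.32, edgeR adjusted p = 2.85e-05). Aldh1a2 (chromosome 9, 71215789 to 71296243), which makes retinoic acid, stood at 234, 324 and 301 CPM in sham and 863, 1062 and 962 CPM in overload (log2 fold change 1.75 ± 0.27, edgeR adjusted p = 5.72e-05). Crabp2, which carries it to its receptor, stood at 15.8, 8.20 and 9.72 CPM in sham and 58.6, 88.3 and 57.2 CPM in overload (log2 fold change 2.65 ± 0.40, edgeR adjusted p = 4.54e-05). These 3 genes were higher in each overloaded library than in any sham library. Cyp26b1, which degrades retinoic acid, fell from 99.1, 124 and 90.7 CPM in sham to 19, 19.5 and 4.67 CPM in overload (log2 fold change -2.84 ± 0.67, edgeR adjusted p = 0.0106). Aldh1a1, the isozyme of Aldh1a2, fell from 96.8, 154 and 97.2 CPM in sham to 32.7, 28.6 and 32.7 CPM in overload (log2 fold change -1.93 ± 0.28, edgeR adjusted p = 2.67e-05), as did Aldh2 (-1.83 ± 0.26) and the alcohol dehydrogenase Adh1 (-1.97 ± 0.31). The 5 higher calls became 3 with the chromosome Y covariate. In cdKO the changes of Rdh10, Aldh1a2, Crabp2, Cyp26b1 and Aldh1a1 were 1.67, 1.60, 3.0, -2.74 and -1.65 (log2), each called there as well.

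Adipogenic and lipid handling genes had 1 higher and 7 lower of 18, median -1.28. Lpl (lipoprotein lipase) stood at 419, 473 and 450.3 CPM in sham and 239, 125 and 99.2 CPM in overload (log2 fold change -1.55 ± 0.29, edgeR adjusted p = 0.000379). Apoe stood at 473, 484 and 492 CPM in sham and 189.5, 113 and 82.9 CPM in overload (log2 fold change -1.93 ± 0.34, edgeR adjusted p = 0.000351). The early adipogenic factor Cebpd stood at 736, 1111 and 1014 CPM in sham and 351, 243 and 210.1 CPM in overload (log2 fold change -1.84 ± 0.30, edgeR adjusted p = 0.000113). The 7 lower calls numbered 5, 6, 8, 10, 5 and 6 with each library left out in turn, and 4 with the chromosome Y covariate. Cebpb, a relative of Cebpd, at 385, 775 and 469.8 CPM in sham and 472, 450.5 and 573 CPM in overload, did not pass (log2 fold change -0.13 ± 0.36, edgeR adjusted p = 0.827). Summed adipocyte markers were 5.47 to 13.5 CPM in sham and 0 to 5.17 CPM in overload. The fatty acid transporter Cd36, which is also made by endothelial cells, stood at 87.8, 42.4 and 29.2 CPM in sham and 60.3, 0.649 and 4.67 CPM in overload (log2 fold change -1.64 ± 1.17, edgeR adjusted p = 0.359). Cd36 and Cebpb were thus not called. The imprinted gene network had 0 higher and 8 lower of 21, median -0.80, including Cdkn1c and Dcn, which are described with other groups, and Sgce at 351, 305 and 207 CPM in sham and 141, 70.8 and 89.9 CPM in overload (log2 fold change -1.56 ± 0.26, edgeR adjusted p = 0.000159). Tendon and cartilage genes had 4 higher and 3 lower of 14, median -0.35. Cilp, a cartilage matrix protein, stood at 194, 124 and 149 CPM in sham and 1377, 1542 and 1176 CPM in overload (log2 fold change 3.14 ± 0.27, edgeR adjusted p = 2.30e-08). Thbs4 stood at 284, 93 and 117 CPM in sham and 2255, 5102 and 3380 CPM in overload (log2 fold change 4.45 ± 0.42, edgeR adjusted p = 3.79e-07). Both rose without overlap, while Chad and Kera overlapped between the groups and did not pass. Iron, copper and zinc genes had 4 higher (17.4%) and 5 lower (21.7%) of 23, against 10.6% and 11% of all tested genes, median 0.17. Among the lower ones was the metalloreductase Steap3, at 158, 120.3 and 94 CPM in sham and 60.3, 34.4 and 28 CPM in overload (log2 fold change -1.66 ± 0.32, edgeR adjusted p = 0.000584). The 5 lower calls of that list became 3 without overload replicate 3 and 3 with the chromosome Y covariate. The 4 higher calls numbered 2, 2, 4, 5, 3 and 4 with each library left out in turn, and 4 with the chromosome Y covariate, and the 5 lower ones were 3 with the covariate.

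Interferon-stimulated genes were called lower in a larger share than all tested genes (11%). Among interferon-induced GTPases, which attack pathogen vacuoles, 0 of 7 tested members were called higher and 6 lower, with a median log2 fold change of -2.87. Igtp stood at 63.1, 87.5 and 29.2 CPM in sham and 3.45, 10.4 and 9.34 CPM in overload (log2 fold change -2.87 ± 0.44, edgeR adjusted p = 5.24e-05). Gbp2 (chromosome 3, 142620602 to 142638008) stood at 360.3, 435 and 408 CPM in sham and 89.6, 44.8 and 29.2 CPM in overload (log2 fold change -2.93 ± 0.30, edgeR adjusted p = 2.85e-07). Among other interferon-stimulated genes 1 of 48 tested members were called higher and 32 lower, with a median log2 fold change of -1.98. Of the DNA sensors of the Ifi200 cluster on chromosome 1, Ifi207 stood at 538, 779 and 671 CPM in sham and 136, 87.6 and 72.4 CPM in overload (log2 fold change -2.77 ± 0.29, edgeR adjusted p = 4.38e-07). Mndal stood at 239, 305 and 298 CPM in sham and 65.5, 27.3 and 38.5 CPM in overload (log2 fold change -2.75 ± 0.30, edgeR adjusted p = 5.12e-07). Ifi211 stood at 282, 440.2 and 424 CPM in sham and 72.4, 75.9 and 91.1 CPM in overload (log2 fold change -2.26 ± 0.26, edgeR adjusted p = 1.45e-06). These genes are similar in sequence, so reads may be shared among them in counting. Ifngr2, a chain of the interferon gamma receptor, was the member called higher, at 49.5, 45.1 and 35.6 CPM in sham and 75.8, 153 and 156 CPM in overload (log2 fold change 1.56 ± 0.31, edgeR adjusted p = 0.000678). Ifitm3, at 921, 1204 and 868 CPM in sham and 779, 762 and 658 CPM in overload, did not pass (log2 fold change -0.45 ± 0.25, edgeR adjusted p = 0.205). The lymphocyte and myeloid markers given with the libraries were also lower in overload replicates 2 and 3, and their part in these values was not tested.

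The interferon-stimulated response element (GAAANNGAAA, either strand) was found in 6 of the 6 GTPase genes with a RefSeq promoter window and in 18 of 40 of the other interferon-stimulated genes (45.0%), against 3.49% of all windows. A match is a description of the letters and not a bound site. The lists were assembled from interferon-related genes and the shares cover tested members whether called or not. They therefore describe the lists and not the change. Stretches before the start site of Ifi207, Ifi211 and Igtp, which fell, are shown as examples, 5′ to 3′ on the gene's strand with the element in capitals.
Ifi207 (chr1:173741810-173741890, minus strand): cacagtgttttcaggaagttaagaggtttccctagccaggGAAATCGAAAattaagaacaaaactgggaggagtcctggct
Ifi211 (chr1:173913047-173913123, minus strand): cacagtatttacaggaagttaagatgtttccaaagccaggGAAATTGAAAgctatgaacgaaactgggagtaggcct
Igtp (chr11:58199482-58199555, plus strand): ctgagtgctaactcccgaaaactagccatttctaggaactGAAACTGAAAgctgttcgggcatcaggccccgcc

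Class I antigen presentation genes had 3 higher and 6 lower of 14, median -0.86. B2m, the light chain of class I molecules, stood at 1275, 1747 and 1131 CPM in sham and 586, 312 and 342 CPM in overload (log2 fold change -1.75 ± 0.30, edgeR adjusted p = 0.000162). H2-D1, a heavy chain, stood at 588, 559 and 531 CPM in sham and 257, 177 and 154 CPM in overload (log2 fold change -1.52 ± 0.27, edgeR adjusted p = 0.000249). The members called higher were Calr, Canx and Pdia3, folding factors shared with secreted proteins, of which Canx lost its call without overload replicate 2 or overload replicate 3 and Pdia3 without sham replicate 3 or overload replicate 3. The 6 lower calls numbered 4, 3, 5, 6, 3 and 3 with each library left out in turn, and 3 with the chromosome Y covariate. Complement and coagulation genes had 4 higher and 11 lower of 22, median -1.01. Serping1, the C1 inhibitor, stood at 4322, 6782 and 6120 CPM in sham and 2278, 1562 and 1174 CPM in overload (log2 fold change -1.78 ± 0.29, edgeR adjusted p = 8.61e-05). C1s1 stood at 232, 416 and 366 CPM in sham and 138, 94.1 and 70.04 CPM in overload (log2 fold change -1.77 ± 0.29, edgeR adjusted p = 0.000128). Both were lower in each overloaded library. Among acute phase genes Lbp fell from 187, 258 and 172 CPM in sham to 122, 64.3 and 57.2 CPM in overload (log2 fold change -1.39 ± 0.30, edgeR adjusted p = 0.00153). Ptx3, a pentraxin, stood at 1444, 2429 and 1532 CPM in sham and 2269, 2407 and 2114 CPM in overload and overlapped (log2 fold change 0.33 ± 0.50, edgeR adjusted p = 0.682).

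Genes of DNA replication were called in the higher direction only: 20 of 32 tested members were called higher and 0 lower, with a median log2 fold change of 1.48. Rrm2, a subunit of ribonucleotide reductase, stood at 9.01, 17.8 and 6.48 CPM in sham and 58.6, 186 and 183 CPM in overload (log2 fold change 3.54 ± 0.57, edgeR adjusted p = 0.00039). Asf1b, a histone chaperone of S phase, stood at 4.50, 2.73 and 6.48 CPM in sham and 36.2, 85 and 42 CPM in overload (log2 fold change 3.72 ± 0.53, edgeR adjusted p = 1.93e-05). Uhrf1, which guides DNA methylation after replication, had no count in sham and 78 in overload, at least 3.43-fold higher. Pcna, the replication clamp, stood at 56.3, 71.1 and 42.1 CPM in sham and 44.8, 68.8 and 51.4 CPM in overload, with overlapping groups (log2 fold change -0.05 ± 0.27, edgeR adjusted p = 0.908). Among mitosis and G2/M genes 21 of 32 tested members were called higher and 1 lower, with a median log2 fold change of 1.97. Top2a (chromosome 11, 98992943 to 99024189), topoisomerase II alpha, stood at 9.01, 8.20 and 6.48 CPM in sham and 58.6, 178 and 173 CPM in overload (log2 fold change 4.08 ± 0.48, edgeR adjusted p = 3.45e-06). The condensin subunit Smc2 stood at 22.5, 19.1 and 19.4 CPM in sham and 60.3, 148 and 153 CPM in overload (log2 fold change 2.58 ± 0.40, edgeR adjusted p = 6.00e-05). Tacc3, a spindle protein, stood at 6.76, 8.20 and 3.24 CPM in sham and 53.4, 92.8 and 29.2 CPM in overload (log2 fold change 3.14 ± 0.55, edgeR adjusted p = 0.000246). Overload replicate 1 was the lowest overloaded library for Rrm2, Top2a and Smc2, though not for Tacc3. Pttg1 (securin) was the member called lower (log2 fold change -1.28 ± 0.30, edgeR adjusted p = 0.00331), a call lost without sham replicate 2. The 20 S phase calls numbered 17, 15, 18, 24, 15 and 17 with each library left out in turn, and 9 with the chromosome Y covariate. The 21 mitosis calls numbered 14, 12, 23, 25, 14 and 17 with each library left out in turn, and 13 with the chromosome Y covariate.

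The CHR element (TTTGAA, either strand), a promoter element of cell cycle genes, was found in 19 of the 27 mitosis genes with a window (70.4%), against 18.1% of all windows, and the CCAAT box (CCAAT, either strand) in 19 (70.4%) against 37.9%. The list was assembled from cell cycle genes and the shares cover tested members whether called or not, so they describe the list and not the change. Top2a and Smc2 are shown 5′ to 3′ on the gene's strand with the CHR element in capitals.
Top2a (chr11:99024319-99024408, minus strand): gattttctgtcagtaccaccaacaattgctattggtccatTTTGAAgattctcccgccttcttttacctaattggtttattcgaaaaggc
Smc2 (chr4:52439036-52439125, plus strand): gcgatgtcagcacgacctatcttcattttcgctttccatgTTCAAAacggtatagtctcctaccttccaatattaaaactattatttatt

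Several brakes on the cell cycle were lower. D cyclins, CDK inhibitors and quiescence factors had 1 higher and 11 lower of 30, median -0.69. Cdkn1a (chromosome 17, 29090976 to 29100727), which encodes p21, stood at 2121, 2431 and 2067 CPM in sham and 944, 507 and 505 CPM in overload (log2 fold change -1.76 ± 0.28, edgeR adjusted p = 6.85e-05). Cdkn1c (chromosome 7, 143458339 to 143461050), which encodes p57, stood at 151, 273 and 259 CPM in sham and 53.4, 31.8 and 29.2 CPM in overload (log2 fold change -2.62 ± 0.35, edgeR adjusted p = 1.83e-05). Ccng2 (cyclin G2) stood at 45, 94.3 and 68 CPM in sham and 20.7, 10.4 and 23.3 CPM in overload (log2 fold change -2.03 ± 0.35, edgeR adjusted p = 0.0002). All 3 were lower in each overloaded library, and overload replicate 1 was the least reduced for both inhibitors. Ccnd2 (cyclin D2) stood at 268, 257 and 201 CPM in sham and 296, 279.8 and 332 CPM in overload and did not pass (log2 fold change 0.31 ± 0.22, edgeR adjusted p = 0.331). The 11 lower calls numbered 8, 10, 11, 10, 7 and 7 with each library left out in turn, and 11 with the chromosome Y covariate. In cdKO the log2 fold changes of Cdkn1a and Cdkn1c were -1.36 ± 0.28 and -2.15 ± 0.35.

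The machinery of protein synthesis had higher calls at several steps. Among cytosolic aminoacyl-tRNA synthetases 14 of 21 tested members were called higher and 0 lower, with a median log2 fold change of 1.25. Gars (chromosome 6, 55038007 to 55079500), the glycine enzyme, stood at 31.5, 24.6 and 48.6 CPM in sham and 115, 211 and 162 CPM in overload (log2 fold change 2.31 ± 0.36, edgeR adjusted p = 6.99e-05). Kars, the lysine enzyme, stood at 60.8, 36.9 and 35.6 CPM in sham and 136, 149 and 134 CPM in overload (log2 fold change 1.65 ± 0.27, edgeR adjusted p = 8.23e-05). Eprs, the glutamate and proline enzyme, stood at 113, 145 and 119.9 CPM in sham and 346, 361 and 433 CPM in overload (log2 fold change 1.58 ± 0.26, edgeR adjusted p = 0.000105). None of these 3 overlapped between the groups. Vars, the valine enzyme, rose by 1.85 ± 0.31 (log2), while Lars, the leucine enzyme, stood at 29.3, 28.7 and 29.2 CPM in sham and 31, 39.6 and 47.9 CPM in overload and did not pass (log2 fold change 0.46 ± 0.36, edgeR adjusted p = 0.391). The 14 calls numbered 14, 10, 13, 15, 10 and 11 with each library left out in turn, and 9 with the chromosome Y covariate.

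Enzymes that make serine, glycine, proline, asparagine and nucleotides were split, with most calls higher: 15 of 39 tested members were called higher and 2 lower, with a median log2 fold change of 0.82. Psat1 (chromosome 19, 15904678 to 15947337), of serine synthesis, stood at 63.1, 79.3 and 55.1 CPM in sham and 279, 475 and 322 CPM in overload (log2 fold change 2.42 ± 0.30, edgeR adjusted p = 3.16e-06). Shmt2, which turns serine into glycine in mitochondria, stood at 87.8, 68.4 and 58.3 CPM in sham and 196, 288 and 251 CPM in overload (log2 fold change 1.77 ± 0.25, edgeR adjusted p = 1.97e-05). Mthfd2, of mitochondrial folate metabolism, stood at 29.3, 20.5 and 6.48 CPM in sham and 109, 151 and 163 CPM in overload (log2 fold change 2.83 ± 0.41, edgeR adjusted p = 3.35e-05). None of the 3 overlapped between the groups. Asns (asparagine synthetase) stood at 2.25, 4.10 and 9.72 CPM in sham and 25.8, 48 and 30.4 CPM in overload (log2 fold change 2.85 ± 0.55, edgeR adjusted p = 0.000604). Glul (glutamine synthetase) fell from 479.7, 890.0 and 690.1 CPM in sham to 217, 177 and 168 CPM in overload (log2 fold change -1.88 ± 0.25, edgeR adjusted p = 1.03e-05). Atf4, the transcription factor known to drive several of these genes, stood at 1480, 1636 and 1691 CPM in sham and 1022, 1242 and 1132 CPM in overload and did not pass (log2 fold change -0.5 ± 0.24, edgeR adjusted p = 0.136). These are transcript levels only, and the part of Atf4 in the changes of this list was not tested. The 15 higher calls numbered 11, 8, 12, 19, 9 and 10 with each library left out in turn, and 7 with the chromosome Y covariate.

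Among translation factors 21 of 60 tested members were called higher and 3 lower, with a median log2 fold change of 0.60. Eif3a and Eif3c, subunits of initiation factor 3, rose by 1.10 ± 0.24 (log2) and 1.28 ± 0.25, and the elongation factor Eef1g stood at 54, 93 and 25.9 CPM in sham and 159, 191 and 190.3 CPM in overload (log2 fold change 1.54 ± 0.30, edgeR adjusted p = 0.000739). Eif4a1, at 687, 602 and 444 CPM in sham and 258, 674 and 948 CPM in overload, overlapped (log2 fold change 0.12 ± 0.34, edgeR adjusted p = 0.834). Ribosome biogenesis genes had 19 higher and 2 lower of 50, median 0.77. Ncl (nucleolin) stood at 574, 537 and 499 CPM in sham and 1116, 1079 and 1451 CPM in overload (log2 fold change 1.18 ± 0.25, edgeR adjusted p = 0.00137). Nhp2, of the small nucleolar complexes, stood at 9.01, 9.57 and 9.72 CPM in sham and 39.6, 59.7 and 37.4 CPM in overload (log2 fold change 2.28 ± 0.47, edgeR adjusted p = 0.00118). Myc, known to drive ribosome biogenesis, fell as given with the immediate early genes, and its part in these values was not tested. Ribosomal protein genes themselves were near the background in higher calls only (10 of 77, 13% against 10.6%). In the list 0 were called lower, against 11% of all tested genes, and the median was 0.38 beside -0.05 for all tested genes. Rpl5 stood at 1092, 1487 and 1494 CPM in sham and 1478, 2366 and 1924 CPM in overload (log2 fold change 0.5 ± 0.26, edgeR adjusted p = 0.175). The 21 higher translation factor calls became 8 with the chromosome Y covariate. The 19 ribosome biogenesis calls numbered 11, 11, 14, 25, 13 and 12 with each library left out in turn, and 9 with the chromosome Y covariate. The 10 ribosomal protein calls numbered 3, 12, 5, 24, 4 and 7 with each library left out in turn, and 1 with the chromosome Y covariate.

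Nuclear pore, import and chromatin genes had 14 higher and 0 lower of 32, median 0.67. Rcc1, the exchange factor of Ran, stood at 13.5, 8.20 and 6.48 CPM in sham and 29.3, 46.1 and 52.5 CPM in overload (log2 fold change 2.17 ± 0.42, edgeR adjusted p = 0.000652). Ranbp1 stood at 137, 193 and 159 CPM in sham and 310.1, 525 and 488 CPM in overload (log2 fold change 1.43 ± 0.29, edgeR adjusted p = 0.000897). Smarcc1, a chromatin remodeller subunit, stood at 20.3, 26 and 22.7 CPM in sham and 56.9, 68.2 and 93.4 CPM in overload (log2 fold change 1.64 ± 0.32, edgeR adjusted p = 0.000669). All 3 were higher in each overloaded library than in any sham library. Splicing and mRNA-binding genes had 8 higher and 4 lower of 46, median 0.37. These shares, 17.4% and 8.7%, were near the 10.6% and 11% of all tested genes. Hnrnpc, at 977, 1188 and 1001 CPM in sham and 1129, 1414 and 1021 CPM in overload, overlapped (log2 fold change 0.17 ± 0.25, edgeR adjusted p = 0.664). The 14 nuclear pore calls were 9 with the chromosome Y covariate. The 8 higher splicing calls numbered 6, 6, 7, 13, 5 and 7 with each library left out in turn, and 3 with the chromosome Y covariate. The 4 lower ones numbered 2, 3, 3, 4, 1 and 1 with each library left out in turn, and 2 with the chromosome Y covariate.

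The secretory pathway had higher calls above the background share at each stage. At entry into the endoplasmic reticulum, translocon, signal peptidase and N-glycosylation genes had 21 higher and 0 lower of 41, median 0.84. Sec61b, of the translocation channel, stood at 42.8, 38.3 and 35.6 CPM in sham and 103, 223 and 189 CPM in overload (log2 fold change 2.15 ± 0.30, edgeR adjusted p = 1.68e-05). Ssr2 and Ssr4, of the translocon-associated complex, rose by 1.94 ± 0.30 (log2) and 1.77 ± 0.26. For folding, 23 of 42 tested members were called higher and 1 lower, with a median log2 fold change of 0.95. Pdia6, a disulfide isomerase, stood at 408, 444 and 486 CPM in sham and 1397, 2141 and 1722 CPM in overload (log2 fold change 1.98 ± 0.30, edgeR adjusted p = 3.43e-05). Fkbp11, a prolyl isomerase, stood at 0, 6.84 and 3.24 CPM in sham and 29.3, 134 and 120.2 CPM in overload (log2 fold change 4.56 ± 0.67, edgeR adjusted p = 0.000132). Creld2 stood at 40.5, 27.3 and 9.72 CPM in sham and 114, 171 and 109.7 CPM in overload (log2 fold change 2.29 ± 0.38, edgeR adjusted p = 0.000151). All 3 rose in each overloaded library. Dnajb9, a co-chaperone often used as a readout of the unfolded protein response, stood at 182, 336 and 259 CPM in sham and 189.5, 178 and 175 CPM in overload and did not pass (log2 fold change -0.53 ± 0.24, edgeR adjusted p = 0.12). For transport, 21 of 50 tested members were called higher and 0 lower, with a median log2 fold change of 0.66. Sec13, of the COPII coat that carries procollagen out, stood at 135, 129.9 and 104 CPM in sham and 295, 663 and 419 CPM in overload (log2 fold change 1.90 ± 0.29, edgeR adjusted p = 5.41e-05). The cargo receptor Surf4 stood at 167, 119 and 117 CPM in sham and 414, 519 and 434 CPM in overload (log2 fold change 1.77 ± 0.30, edgeR adjusted p = 0.000171). No member of the translocon or of the transport list was called lower. The 23 folding calls were 14 with the chromosome Y covariate.

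The endoplasmic reticulum stress element (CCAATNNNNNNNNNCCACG, either strand) was found in 8 of the 35 folding genes with a window (22.9%), against 0.13% of all windows, and the CCAAT box contained in it in 27 (77.1%) against 37.9%. The list is rich in known targets of this element, so the share describes the list. Pdia6, Calr and Creld2 are shown 5′ to 3′ on the gene's strand with the element in capitals.
Pdia6 (chr12:17266451-17266540, plus strand): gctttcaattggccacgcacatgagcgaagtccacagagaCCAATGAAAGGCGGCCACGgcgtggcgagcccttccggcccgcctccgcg
Calr (chr8:84847044-84847133, minus strand): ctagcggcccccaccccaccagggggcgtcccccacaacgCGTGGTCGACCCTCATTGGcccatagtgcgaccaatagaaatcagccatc
Creld2 (chr15:88819480-88819569, plus strand): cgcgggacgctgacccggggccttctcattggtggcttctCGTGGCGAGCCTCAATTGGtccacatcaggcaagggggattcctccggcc

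Proteasome subunits had 20 higher and 1 lower of 40, median 0.87. Psmd14, of the regulatory particle, stood at 83.3, 119 and 90.7 CPM in sham and 274, 376 and 307 CPM in overload (log2 fold change 1.69 ± 0.27, edgeR adjusted p = 6.85e-05). Psma7, of the core, stood at 96.8, 108 and 117 CPM in sham and 233, 393 and 404 CPM in overload (log2 fold change 1.69 ± 0.28, edgeR adjusted p = 9.87e-05). The member called lower, Psmb8, is the interferon-induced subunit of the immunoproteasome, at 20.3, 27.3 and 32.4 CPM in sham and 15.5, 9.74 and 10.5 CPM in overload, and its call (log2 fold change -1.19 ± 0.42, edgeR adjusted p = 0.044) was lost in 13 of the alternative fits. Psmb10, another such subunit, did not pass (log2 fold change -0.78 ± 0.42, edgeR adjusted p = 0.188). The 20 higher calls numbered 13, 19, 18, 29, 12 and 17 with each library left out in turn, and 8 with the chromosome Y covariate. Cytosolic chaperones had 12 higher and 6 lower of 36, median 0.40. Their 6 lower calls numbered 4, 2, 4, 6, 3 and 3 with each library left out in turn, and 2 with the chromosome Y covariate. The chaperonin subunits Cct6a and Cct4 rose by 1.61 ± 0.28 (log2) and 1.31 ± 0.27, and the mitochondrial Hspe1 stood at 205, 319 and 198 CPM in sham and 644, 811 and 598 CPM in overload (log2 fold change 1.5 ± 0.28, edgeR adjusted p = 0.000488). Cryab, a small heat shock protein, fell from 354, 489 and 230.0 CPM in sham to 139.6, 76.6 and 67.7 CPM in overload (log2 fold change -1.96 ± 0.37, edgeR adjusted p = 0.00094). Lysosome and autophagy genes had 0 of 48 tested members called higher and 15 lower, with a median log2 fold change of -0.38. Psap (prosaposin) stood at 131, 157 and 113 CPM in sham and 49.97, 40.9 and 42 CPM in overload (log2 fold change -1.62 ± 0.25, edgeR adjusted p = 6.32e-05). Sqstm1, an autophagy receptor, stood at 957, 1306 and 855 CPM in sham and 909.7, 758 and 548 CPM in overload, without passing (log2 fold change -0.5 ± 0.28, edgeR adjusted p = 0.209). The 15 lysosomal calls were 9 without sham replicate 2, and 9 with the chromosome Y covariate.

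Glycolytic genes had 7 higher and 1 lower of 18, median 0.78. Pgk1 stood at 24.8, 52 and 32.4 CPM in sham and 77.5, 185 and 133 CPM in overload (log2 fold change 1.82 ± 0.36, edgeR adjusted p = 0.00101). Hif1a, the transcription factor listed with them, stood at 47.3, 84.8 and 48.6 CPM in sham and 202, 303 and 249.8 CPM in overload (log2 fold change 2.01 ± 0.30, edgeR adjusted p = 3.43e-05). Hk2 (hexokinase 2), at 322, 381 and 301 CPM in sham and 241, 348 and 291 CPM in overload, overlapped (log2 fold change -0.19 ± 0.27, edgeR adjusted p = 0.653). The tricarboxylic acid cycle and fatty acid oxidation had 3 higher and 1 lower of 39, median 0.21, both shares under the background. Nuclear genes of the respiratory chain had 15 higher and 0 lower of 67, median 0.60, among them Uqcrq of complex III at 29.3, 57.4 and 42.1 CPM in sham and 176, 236 and 203 CPM in overload (log2 fold change 2.22 ± 0.32, edgeR adjusted p = 1.97e-05). Ndufa12 of complex I stood at 106, 126 and 90.7 CPM in sham and 221, 362 and 285 CPM in overload (log2 fold change 1.41 ± 0.24, edgeR adjusted p = 0.000188). The ATP synthase subunit Atp5b, at 252, 297 and 314 CPM in sham and 283, 592 and 454 CPM in overload, did not pass (log2 fold change 0.63 ± 0.27, edgeR adjusted p = 0.0926). Those 15 calls numbered 6, 18, 10, 27, 7 and 9 with each library left out in turn, and 5 with the chromosome Y covariate. Sterol and fatty acid synthesis had 5 higher (16.7%) and 1 lower (3.33%) of 30, against 10.6% and 11% of all tested genes, median 0.25. The 5 higher calls became 3 without sham replicate 2 and 2 without sham replicate 3. Ion channels and pumps had 1 higher (3.03%) and 5 lower (15.2%) of 33, against the same background shares, median -0.43. Their 5 lower calls numbered 2, 2, 4, 12, 2 and 2 with each library left out in turn, and 2 with the chromosome Y covariate.

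The change with overload was read a second time in the cdKO libraries, which share no sample with the control comparison, though both came from a single fit with a shared estimate of the spread. There 1065 genes (13%) were called, 520 (6.37%) higher and 545 (6.68%) lower. Of the 867 genes higher in control 380 were also called higher in cdKO, which is 43.8% of the control list and 73.1% of the cdKO list. Of the 901 genes lower in control 408 were also called lower in cdKO, 45.3% of the control list and 74.9% of the cdKO list. No gene was called in opposite directions. A log2 fold change of the same sign was found in cdKO for 842 (97.1%) of the genes higher in control and 867 (96.2%) of those lower, with medians in cdKO of 0.87 and -0.98 beside 1.32 and -1.53 in control. The share with the same sign over all tested genes was not counted, so these percentages have no background beside them. The control medians come from genes chosen for passing there, so the sizes of the medians are not compared. Across all tested genes, which are not independent replicates, the changes of the 2 genotypes had a Pearson correlation of 0.714 and a Spearman correlation of 0.705.

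**Figure D5:**
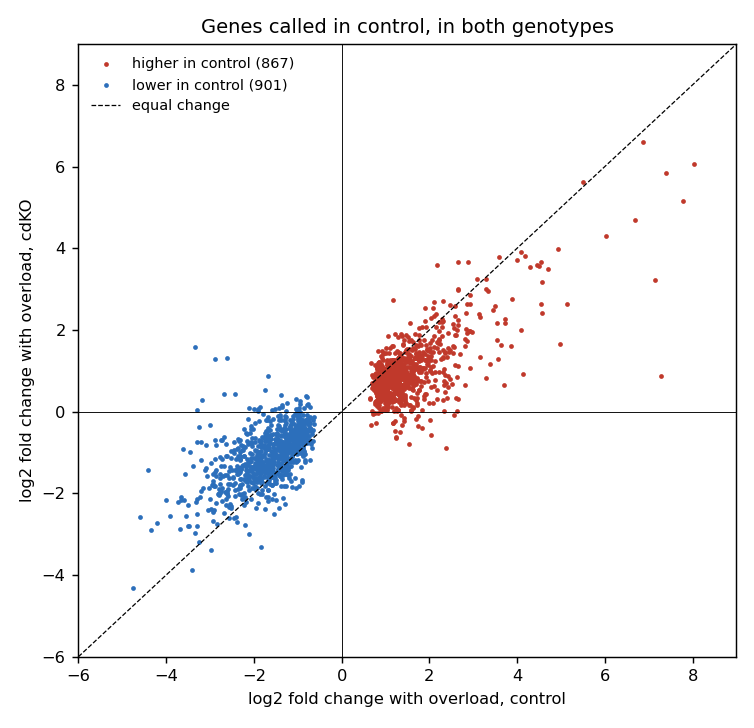
Log2 fold change of overload over sham in cdKO (vertical axis) against control (horizontal axis) for the 1768 genes called in control. Red points were called higher and blue points lower in control, the dashed line marks equal change, and most points lie on the same side of 0 in both genotypes.

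The difference of the change between the genotypes was tested directly, and 0 of 8161 genes (0%) passed in edgeR, with 427 at an unadjusted p under 0.05. DESeq2 called 1 gene, limma voom 0, and edgeR with no filter on low counts 10. Single genes can show the range of values behind this. The log2 fold change of Tnc was 8.03 ± 0.58 in control and 6.05 ± 0.49 in cdKO. That of Postn was 5.51 ± 0.41 and 5.61 ± 0.41, that of Gsn -2.54 ± 0.32 and -1.76 ± 0.32, and that of Gbp2 -2.93 ± 0.30 and -1.70 ± 0.29. For Cxcl13, a B cell chemokine, control fell from 27, 50.6 and 90.7 CPM in sham to 5.17, 7.79 and 2.33 CPM in overload (log2 fold change -3.25 ± 0.47, edgeR adjusted p = 2.26e-05). In cdKO its log2 fold change was -0.38 ± 0.37 and did not pass (adjusted p = 0.57). Its difference of 2.87 ± 0.60 (log2) did not pass (adjusted p = 0.183), so a call in control alone does not show that the genotypes differ.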

How the data were processed

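Gene counts of 12 mouse libraries, 3 in each of 4 groups, were taken from the count table deposited by the authors, as whole numbers per Ensembl gene with no normalization. HISAT2 2.2.1, Trim Galore 0.6.6, DESeq2 1.26.0, featureCounts 2.0.1 and the build GRCm38 are named, without roles, by the submitters' processing notes. Not given in the sources used here are the annotation release, the strand setting and any use of molecular identifiers, so overlapping and antisense genes are uncertain.

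Of 54100 genes, 8161 passed edgeR's filter on low counts and were tested with the quasi-likelihood test on a 4-group fit with trimmed mean scaling (R 4.3.3, edgeR 4.0.16, limma 3.58.1). Calls needed an adjusted p (Benjamini-Hochberg, all tested genes) under 0.05. The alternatives were DESeq2 1.42.0, limma voom, other scalings and filters, a replicate block, thinned counts, a chromosome Y covariate and single libraries left out. Genes were named by rule: the 15 called genes each way with the largest CPM difference or the smallest p, and in each list up to 4 called members each way and up to 2 abundant members that did not pass. Comparison, lists and rule were chosen with earlier results of these data known. On simulated data, tested in 5 runs of 200 changed genes among 8161, the main test found 16.2% of 2-fold and 74% of 4-fold changes, and 5.25% of calls were false. Far fewer genes were changed there than the 1768 called in the data, and the adjustment of p depends on that number. The shares found therefore hold for that setting and are not the detection rates of the reported comparison. Promoter windows are RefSeq's for GRCm38.p6. Gene coordinates are GENCODE's for GRCm38. Some results are not reported here.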

Additional observations from a re-analysis of the deposited data

How the results depend on the processing

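No called gene changed direction under any alternative. Against 1768 calls (867 higher, 901 lower), 784 calls (379 higher, 405 lower) were made on counts thinned to the smallest library, where fewer reads were tested. With the share of chromosome Y counts as a covariate 1031 were made (440 and 591), and 712 (328 and 384) without both control overload replicate 2 and control sham replicate 3; the cause was not tested. With each library left out in turn the calls ran from 1060 to 2508, the higher calls from 556 to 1259 and the lower ones from 504 to 1249. The lowest counts came without overload replicate 2 and the highest without overload replicate 1. With no filter on low counts 577 genes were called lower, and 58.3% of calls were higher against 49.0% in the reported fit. The difference between genotypes gave 10 calls with no filter, 1 with DESeq2, and 0 to 1 with each library left out, the 1 without control sham replicate 1. The replicate block gave 844 higher and 908 lower calls. The deviations of control sham and overload libraries with the same number correlated at 0.098, 0.267 and 0.036. Those with different numbers correlated at -0.209 to 0.096. The main fit did not pair libraries by number, and whether the numbers pair them was not tested. DESeq2 made 786 higher and 769 lower calls, and voom 993 and 1308. Of 373 named genes that were called, 222 stayed past the threshold in every alternative that gave them a value. Some genes were not tested in some alternatives. At 1.95 to 9.72 CPM for 3 counts, changes of low genes were often not detectable.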

Other observations

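Of the called genes, 1035 were in no list, and a few of the strongest by p or by CPM are given here as values. Pak1, a kinase downstream of Rac and Cdc42, stood at 6.76, 4.10 and 9.72 CPM in sham and 51.7, 85.7 and 82.9 CPM in overload (log2 fold change 3.56 ± 0.43, edgeR adjusted p = 2.37e-06), and in cdKO it rose by 1.29 (adjusted p = 0.0181). Myoc (myocilin), a secreted glycoprotein, stood at 2108, 1883 and 1604 CPM in sham and 360.1, 118 and 104 CPM in overload (log2 fold change -3.29 ± 0.41, edgeR adjusted p = 1.79e-05). Rnase4, a secreted ribonuclease, stood at 1822, 2798 and 3032 CPM in sham and 839, 819 and 685 CPM in overload (log2 fold change -1.71 ± 0.26, edgeR adjusted p = 3.74e-05). Overloaded libraries of all 3 genes lay outside the range of sham.

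Entpd2, an enzyme that hydrolyses extracellular ATP, stood at 347, 259.8 and 334 CPM in sham and 68.9, 68.2 and 56 CPM in overload (log2 fold change -2.27 ± 0.25, edgeR adjusted p = 5.42e-07). Plpp3, a lipid phosphatase that degrades lysophosphatidic acid, stood at 1718, 2517 and 2239 CPM in sham and 782, 551 and 511 CPM in overload (log2 fold change -1.81 ± 0.26, edgeR adjusted p = 2.32e-05). Both fell in each overloaded library. Efhd1, a mitochondrial calcium-binding protein, stood at 108, 139 and 94 CPM in sham and 15.5, 12.3 and 15.2 CPM in overload (log2 fold change -3.03 ± 0.30, edgeR adjusted p = 1.60e-07), and Islr, a mesenchymal surface protein also called Meflin, at 216, 180.5 and 178 CPM in sham and 36.2, 15.6 and 26.9 CPM in overload (log2 fold change -2.95 ± 0.33, edgeR adjusted p = 8.12e-07). In cdKO the changes of Entpd2, Plpp3, Efhd1 and Islr were -1.78, -1.44, -1.86 and -1.80, and all 4 passed there.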
